A study of Homo sapiens with 6 samples.

Results

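The genes of cholesterol and fatty acid synthesis were examined for binding of PLAG1-S and USF2 in K562, a human chronic myelogenous leukemia cell line. The 31 genes, of 20037 protein-coding genes in the RefSeq table, were chosen by name, and their peaks were those inside the gene on hg38 or within 3 kb of it. All 31 were found in the table. ChIP-seq, which sequences the DNA pulled down with a protein, was done on 2 clones, #4 and #5, both of which overexpressed Flag-PLAG1-S and USF2 together. Each clone gave 1 PLAG1-S library, through the FLAG tag, 1 USF2 library and 1 input, so that each factor had 2 libraries. There were no cells without the transgenes, so that every peak described here was measured under overexpression of both factors, and each library came from 1 clonal line.

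Cholesterol is built from acetyl-CoA through mevalonate, farnesyl diphosphate, squalene and lanosterol, and fatty acids are built from the same acetyl-CoA through malonyl-CoA. The transcription factors SREBP-1 and SREBP-2 drive most of these genes. They are held in the endoplasmic reticulum by INSIG proteins and escorted to the Golgi by SCAP when sterols run low. USF1 and USF2 bind the E-box CACGTG, and USF binding at the FASN promoter is a classic case of control of lipid synthesis by insulin. PLAG1 is a zinc-finger factor that binds a G-rich bipartite motif. PLAG1-S is a short form that, per the paper, is slightly smaller than PLAG1-B, which lacks some zinc fingers of the larger PLAG1-A.

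Reproducible USF2 peaks were found at 8 of the 31 genes: MVK, LSS, SC5D, DHCR7, EBP, SCAP, INSIG1 and FASN. Here a reproducible peak is one of clone 4 that shares 1 bp or more with one of clone 5 for the same protein. The 8 genes made up 25.8% of the list, and the same rule called 10.3% of all protein-coding genes. All 8 also had a co-bound peak, a reproducible PLAG1-S peak with its edges within 100 bp of a reproducible USF2 peak, against 9.98% of all protein-coding genes. Reproducible PLAG1-S peaks were found at 25 of the 31 genes, or 80.6%, against 52.0% of all. In the clone 4 lists alone, USF2 was found at 15 of the 31 genes and co-binding at 15, where 25.3% and 20.5% of all protein-coding genes were called. In the clone 5 lists alone, the counts were 8 and 9, where 13.6% and 11.3% of all were called. No test over libraries was run, since 2 libraries per factor cannot pass a threshold in an exact permutation test, and these shares are given as a description. The 31 genes and the rules were also chosen with earlier results of these data known. The median length was 22.5 kb for the 31 genes and 24.1 kb for all protein-coding genes.

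**Figure D1:**
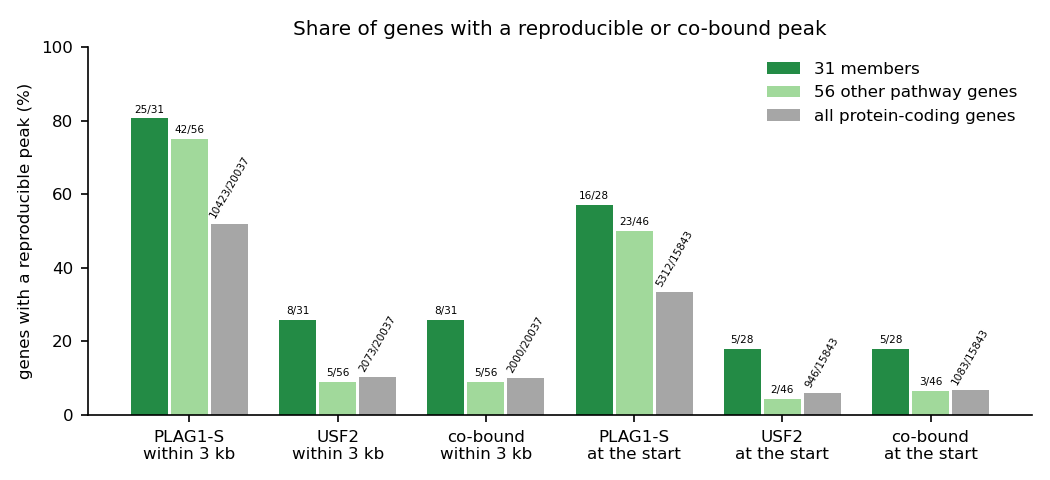
Share of genes (%, vertical axis) with a reproducible PLAG1-S, USF2 or co-bound peak within 3 kb of the gene or at its start, for the 31 genes (dark green), 56 other genes of these and neighbouring pathways (light green) and all protein-coding genes (grey), with counts above the bars. For USF2 within 3 kb the bars stand at 25.8%, 8.93% and 10.3%.

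The sequences before the starts of INSIG1, SC5D and EBP are shown because all 4 libraries had their summits there, and a short stretch of SCAP is shown because USF2 had its summits over it. They are reference sequence from RefSeq on GRCh38.p14, written 5′ to 3′ on the strand of the gene. For INSIG1 the 250 bases before the start were chr7:155297628-155297877 on the plus strand, and for SC5D chr11:121292521-121292770 on the plus strand. SCAP is shown at chr3:47475982-47476011 on the minus strand and EBP at chrX:48521558-48521807 on the plus strand. Capitals mark the E-box CACGTG in the first 3, and in EBP, which had no CACGTG, they mark the 3 copies of ATTGG, the complement of the CCAAT box.
INSIG1: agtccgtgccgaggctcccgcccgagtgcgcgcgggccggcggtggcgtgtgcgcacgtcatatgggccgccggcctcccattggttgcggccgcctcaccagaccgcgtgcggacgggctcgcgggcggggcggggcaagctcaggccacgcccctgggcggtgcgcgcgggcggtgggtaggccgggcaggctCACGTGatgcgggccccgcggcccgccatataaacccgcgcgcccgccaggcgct
SC5D: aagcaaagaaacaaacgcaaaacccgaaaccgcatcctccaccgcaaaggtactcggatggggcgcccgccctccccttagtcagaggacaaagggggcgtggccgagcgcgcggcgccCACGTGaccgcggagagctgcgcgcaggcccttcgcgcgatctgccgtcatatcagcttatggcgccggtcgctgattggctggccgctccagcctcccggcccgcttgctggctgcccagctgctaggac
SCAP: cgccgctgggcgCACGTGcggagggcggcg
EBP: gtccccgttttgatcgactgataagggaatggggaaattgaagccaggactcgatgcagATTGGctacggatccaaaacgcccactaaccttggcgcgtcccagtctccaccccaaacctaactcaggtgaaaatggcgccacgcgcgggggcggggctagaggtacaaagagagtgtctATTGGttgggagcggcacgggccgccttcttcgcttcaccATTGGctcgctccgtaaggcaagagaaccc

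The E-box lay under the USF2 summits in each of the first 3. In INSIG1 it was at bases −55 to −50 from the start, 2 bp from the clone 4 USF2 summit and 4 bp from that of clone 5. In SC5D it was at bases −131 to −126, 12 and 10 bp from the USF2 summits. In SCAP it was at bases −58 to −53, 4 and 10 bp from them. In EBP the nearest CCAAT box, at bases −30 to −26, was 10 and 14 bp from the USF2 summits. CCAAT was not particular to EBP, as INSIG1 held it at bases −170 to −166 and SC5D at bases −56 to −52, left unmarked. EBP also held a G-rich bipartite PLAG1 motif at bases −102 to −86, 56 and 52 bp from the USF2 summits. Over all genes, 679 reproducible USF2 summits fell in a start window, meaning 250 bases before to 50 after a RefSeq start. Of these windows 86.0% held CACGTG, at a median of 8.50 bp from the summit.

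CACGTG reads the same on both strands. It was found in the start windows of 5 of the 28 genes with a RefSeq start in the promoter table, or 17.9%, and in 10.9% of the 15843 protein-coding genes with a start. Besides INSIG1, SC5D and SCAP these were LSS and ABCA1, which are shown because neither had a reproducible USF2 peak at its start. LSS is given at chr21:46228725-46228746 on the minus strand, where the E-box began 40 bases after the start, and ABCA1 by the 250 bases before its start, chr9:104928156-104928405 on the minus strand. Capitals mark the E-box.
LSS: aatgacggagggCACGTGagtc
ABCA1: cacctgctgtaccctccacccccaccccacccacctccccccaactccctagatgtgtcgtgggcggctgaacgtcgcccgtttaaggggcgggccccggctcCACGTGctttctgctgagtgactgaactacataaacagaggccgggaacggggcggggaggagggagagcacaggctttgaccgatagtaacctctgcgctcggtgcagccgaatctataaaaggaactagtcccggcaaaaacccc

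At LSS, the clone 4 USF2 list had a peak of fold 3.06 31 bp from this E-box, and the clone 5 list had none within 39226 bp. At ABCA1, the cholesterol efflux pump, the nearest peak of any kind to the E-box was a PLAG1-S peak 62912 bp away. The E-box was thus present at both starts without a USF2 peak found in both clones. Other motifs were searched on both strands in the same windows. CCAAT was found at 20 of the 28 genes (71.4%) and in 42.1% of all genes with a start. The G-rich bipartite PLAG1 motif was found at 18 (64.3%) and in 38.5% of all, and the sterol response core TCACNCCAC at SREBF2 only, against 1.51% of all.

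At the starts, 5 of 28 genes had a USF2 peak in the window (17.9%), and 5.97% of all genes with a start did. These were SC5D, DHCR7, EBP, SCAP and INSIG1. The same 5 had a co-bound PLAG1-S peak over the window, which need not hold the USF2 peak itself, against 6.84% of all, and 16 of 28 (57.1%) had a reproducible PLAG1-S peak, against 33.5% of all. Among all 1083 genes with a co-bound peak at the start, 63.4% held CACGTG, and 3 of these 5 did.

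INSIG1, which retains the SREBP and SCAP complex in the endoplasmic reticulum, had the strongest peaks of the list in all 4 libraries. A fold is the enrichment of fragments at the summit over the local background, given by the authors, and fragments are the reads over the summit recovered from it. At the start of INSIG1 the PLAG1-S fold was 31.5 in clone 4 and 29.5 in clone 5, from 224 and 197 fragments. The USF2 fold was 15.8 in clone 4 and 11.8 in clone 5, from 111 fragments (95% Poisson interval 91.3 to 134, counting error only) and 81 fragments (64.3 to 101). The clone 4 PLAG1-S peak ran over chr7:155296978-155298558 (hg38), and the 4 summits lay within 7 bp of each other, between 50 and 57 bases before the start. The PLAG1-S peaks were among the strongest 0.780% and 0.693% of their lists, and the USF2 peaks among the strongest 2.77% and 5.79%.

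INSIG1 had a second co-bound site inside the gene, 3215 bp after the start by the clone 4 PLAG1-S summit. Its PLAG1-S folds were 10.7 in clone 4 and 7.38 in clone 5, and its USF2 folds 3.81 and 3.40. These were weaker than the folds at the start in every library. The USF2 summits of the second site held 22 and 19 fragments, with a −log10 q of 4.69 and 2.97. Its USF2 peak thus falls short of a −log10 q of at least 10, at which INSIG1 stayed called by the site at its start. Between the 2 sites, at 1263 bp, lay a PLAG1-S peak of fold 11.5 in clone 4 and 7.73 in clone 5, with a USF2 peak of fold 3.87 in clone 4 only.

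SCAP, the escort of SREBP, had a weaker site at its start, at chr3:47475456-47476161 (hg38) by the clone 4 PLAG1-S peak. Its PLAG1-S fold was 12.7 in clone 4 and 8.59 in clone 5, and its USF2 fold was 5.34 in clone 4 and 2.97 in clone 5. The USF2 peaks held 35 fragments (95% Poisson interval 24.4 to 48.7) and 20 fragments (12.2 to 30.9). The clone 5 USF2 peak stood near the end of its list, in the top 90% by fold, with a −log10 q of 2.27, so that the call was lost at a −log10 q of at least 10. Of the 4 summits, 3 fell between 55 and 65 bases before the start, and that of PLAG1-S in clone 5 was 180 bases after it. The other SREBP genes had PLAG1-S without reproducible USF2. SREBF2, which encodes SREBP-2, had its strongest PLAG1-S peak 67406 bp into the gene, with folds of 9.75 and 9.13, and a second one 469 bp after the start by the clone 4 summit, with folds of 5.01 and 8.33. SREBF1, which encodes SREBP-1, had 3 reproducible PLAG1-S peaks, of which the one near the start had folds of 8.50 and 6.31, with a USF2 peak of fold 4.05 in clone 4 only. A stronger co-bound site lay just past the 3 kb limit of SREBF1 and was not counted. Its clone 5 PLAG1-S summit was 3220 bp from an end of TOM1L2 and 3305 bp from the start of SREBF1. INSIG2, the relative of INSIG1, had no peak in any list.

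**Figure D2:**
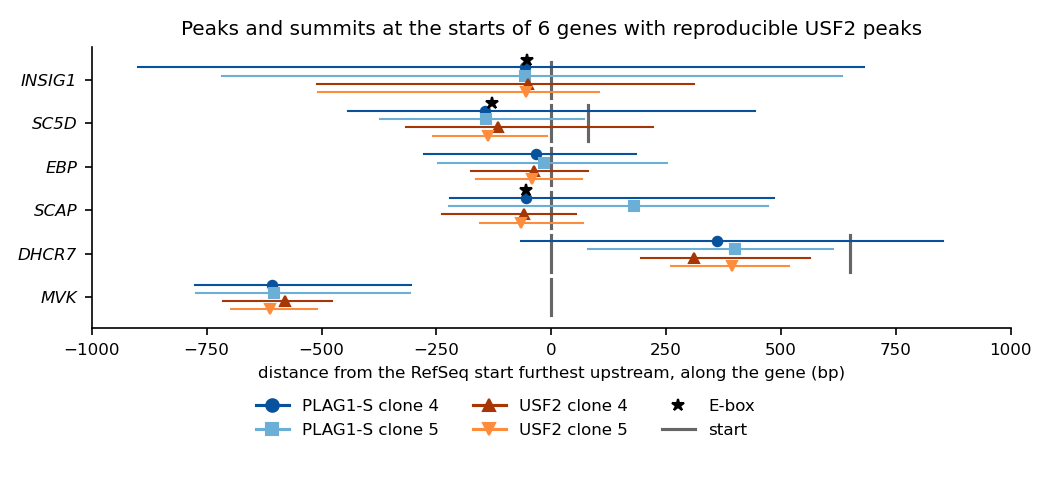
Position (bp, horizontal axis) of PLAG1-S and USF2 peaks (lines) and summits (symbols) in clones 4 and 5 along 6 genes, measured from the RefSeq start that lies furthest upstream, with starts as grey bars and CACGTG as stars. Summits gathered within 7 bp at INSIG1, within 28 bp at SC5D and within 27 bp at EBP, whereas the USF2 summits of MVK lay at −580 and −613 bp and those of DHCR7 between its starts.

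In the mevalonate pathway, 5 of 6 genes had a reproducible PLAG1-S peak and 1, MVK, a reproducible USF2 peak. Over all protein-coding genes the shares were 52.0% for PLAG1-S and 10.3% for USF2. Each step holds few genes, so that the counts by step, here and below, only describe these genes. MVK, mevalonate kinase, had PLAG1-S folds of 16.8 in clone 4 and 14.8 in clone 5 and USF2 folds of 8.59 and 5.53. The clone 4 PLAG1-S peak ran over chr12:109573018-109573488 (hg38). Fragments were 106 and 89 for PLAG1-S and 47 and 32 with the USF2 antibody. The summits spanned 33 bp, and that of USF2 in clone 4 was at −580 bp from the MVK start in the promoter table. It lay 58 bp outside the MVK gene and 290 bp from a start of MMAB, the neighbouring gene for an adenosyltransferase of cobalamin metabolism, so that the site could not be assigned to one of the pair. PMVK, phosphomevalonate kinase, had the largest clone 4 PLAG1-S fold of the genes without reproducible USF2. Its folds near the start were 14.4 and 14.1, with a USF2 peak of fold 4.63 in clone 4 and none in clone 5.

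FDPS, farnesyl diphosphate synthase, had its strongest PLAG1-S peak 14547 bp after the start, with folds of 12.7 and 10.0. The nearest start there was that of RUSC1, 524 bp away. At its start, with the summit 59 bp from an end of PKLR in clone 4, the folds were 5.67 and 5.02, and no USF2 peak was found within 3 kb of FDPS in either clone. MVD, the decarboxylase of the pathway, had PLAG1-S folds of 8.98 and 8.97 at its start and 7.64 and 7.32 at its other end, 82 bp from the start of CYBA, with USF2 peaks of at most fold 3.73 in clone 4 only. HMGCS1, HMG-CoA synthase, had the weakest reproducible PLAG1-S peak of the list, with folds of 3.09 and 2.59. Another PLAG1-S peak there, of fold 5.25 with its summit 6 bp from a start, was found in clone 5 only. IDI1, the isomerase, had 1 PLAG1-S peak in each clone at different positions, of fold 4.28 and 3.24, and thus none that was reproducible.

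From farnesyl diphosphate to lanosterol, all 3 genes had reproducible PLAG1-S peaks (52.0% of all protein-coding genes), and LSS had a reproducible USF2 peak (10.3% of all). LSS, lanosterol synthase, had 6 reproducible PLAG1-S peaks. The strongest, at chr21:46188994-46189535 (hg38) in clone 4, with folds of 19.0 and 11.7 from 104 and 60 fragments, overlapped USF2 peaks of fold 8.07 and 6.72 from 45 and 35 fragments. This co-bound site lay inside the gene at its far end, 39439 bp from the start, and the summits of the 4 libraries spanned 80 bp. At the start of LSS the PLAG1-S folds were 7.98 and 7.29. FDFT1, squalene synthase, had a PLAG1-S peak inside the gene with folds of 13.0 in clone 4 and 7.28 in clone 5, and a USF2 peak of fold 4.11 in clone 4 only. SQLE, squalene epoxidase, had PLAG1-S folds of 8.20 and 7.90 next to a gene end and no USF2 peak.

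The steps from lanosterol to cholesterol held 3 of the 8 genes with USF2 (10.3% of all protein-coding genes had it), and all 3 act late in the pathway. SC5D, a sterol desaturase, had PLAG1-S folds of 27.8 in clone 4 and 22.1 in clone 5 and USF2 folds of 14.0 and 10.3. The clone 4 PLAG1-S peak ran over chr11:121292328-121293215 (hg38) and held 146 fragments, against 111 in clone 5. The USF2 summits held 77 and 55 fragments. The USF2 peak was wider in clone 4 (539 bp) than in clone 5, and the call was lost where 50% reciprocal overlap between clones was asked. In all 4 libraries it was the site with the largest folds after INSIG1.

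EBP, the sterol isomerase, had PLAG1-S folds of 18.5 in clone 4 and 10.5 in clone 5 and USF2 folds of 11.6 and 8.93. The clone 4 PLAG1-S peak ran over chrX:48521530-48521993 (hg38). The PLAG1-S summits held 77 and 47 fragments, and those of USF2 43 and 32. The 4 summits fell between 15 and 42 bases before the EBP start. DHCR7, the reductase of the last step, had PLAG1-S folds of 15.3 and 16.7 and USF2 folds of 7.99 and 5.96. Fragments were 88 and 75 for the former and 35 and 28 for the latter. The clone 4 PLAG1-S peak ran over chr11:71448191-71449109 (hg38). DHCR7 has 2 RefSeq starts, at 71448393 and 71449043 on the minus strand of chromosome 11, and the 4 summits fell between them. The USF2 summits lay outside the start windows, so that the letters under them were not searched.

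Of the other 5 genes of these steps, 2 had reproducible PLAG1-S peaks, where 52.0% of all protein-coding genes did. TM7SF2, a sterol reductase, had 4 of them, the strongest with folds of 9.22 and 8.39 beyond its end and 412 bp from ZNHIT2, where USF2 had a peak of fold 5.04 in clone 4 only. CYP51A1, lanosterol demethylase, had folds of 5.86 and 5.91 and no USF2 peak. HSD17B7 had a PLAG1-S peak of fold 5.67 in clone 4 only. MSMO1 and NSDHL, which together with HSD17B7 remove some of the methyl groups of lanosterol, had no peak in any list.

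In fatty acid synthesis, all 6 genes from acetyl-CoA supply to elongation had reproducible PLAG1-S peaks, and FASN alone had reproducible USF2. The shares of all protein-coding genes were 52.0% and 10.3%. FASN, fatty acid synthase, had PLAG1-S folds of 16.5 in clone 4 and 17.3 in clone 5 and USF2 folds of 5.68 and 3.70. The USF2 peaks held 27 and 17 fragments, and that of clone 5 had a −log10 q of 3.11. The USF2 call of FASN was lost at 50% reciprocal overlap and also with −log10 q held to 10 or more. The PLAG1-S peak of clone 4, at chr17:82096841-82099807 (hg38), was 2967 bp wide, the widest of the list, where the median was 420.5 bp. The summits of the 2 factors were 469 bp apart in clone 4 and 284 bp apart in clone 5. That of USF2 in clone 4 lay 80 bp inside an end of the gene.

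ACACA, acetyl-CoA carboxylase, had PLAG1-S folds of 13.9 in clone 4 and 17.9 in clone 5 just before its first start, 223 bp from TADA2A. A pair of further PLAG1-S summits flanked an internal start in clone 4, with folds of 9.88 and 6.73, and a USF2 peak of fold 4.39 was found there in clone 4 only. SCD, which desaturates stearoyl-CoA, had PLAG1-S folds up to 8.73 and 6.67. ELOVL6, a fatty acid elongase, had folds up to 9.42 and 5.86. ACLY and ACSS2, which make acetyl-CoA from citrate and acetate, had reproducible clone 4 folds between 3.51 and 5.47. None of SCD, ELOVL6, ACLY and ACSS2 had a USF2 peak in either clone.

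Among the sterol transport genes, STARD4, a sterol carrier, had a PLAG1-S peak at its start with folds of 7.07 and 5.68 and no USF2 peak. NR1H2, the nuclear receptor LXR-β, had 3 reproducible PLAG1-S peaks with clone 4 folds between 4.57 and 5.96, the last of them at the start of POLD1 (15 bp away in clone 4), where USF2 had peaks of at most fold 3.70 in clone 4 only. ABCA1 had 1 PLAG1-S peak, of fold 3.95, in clone 4 only.

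**Figure D3:**
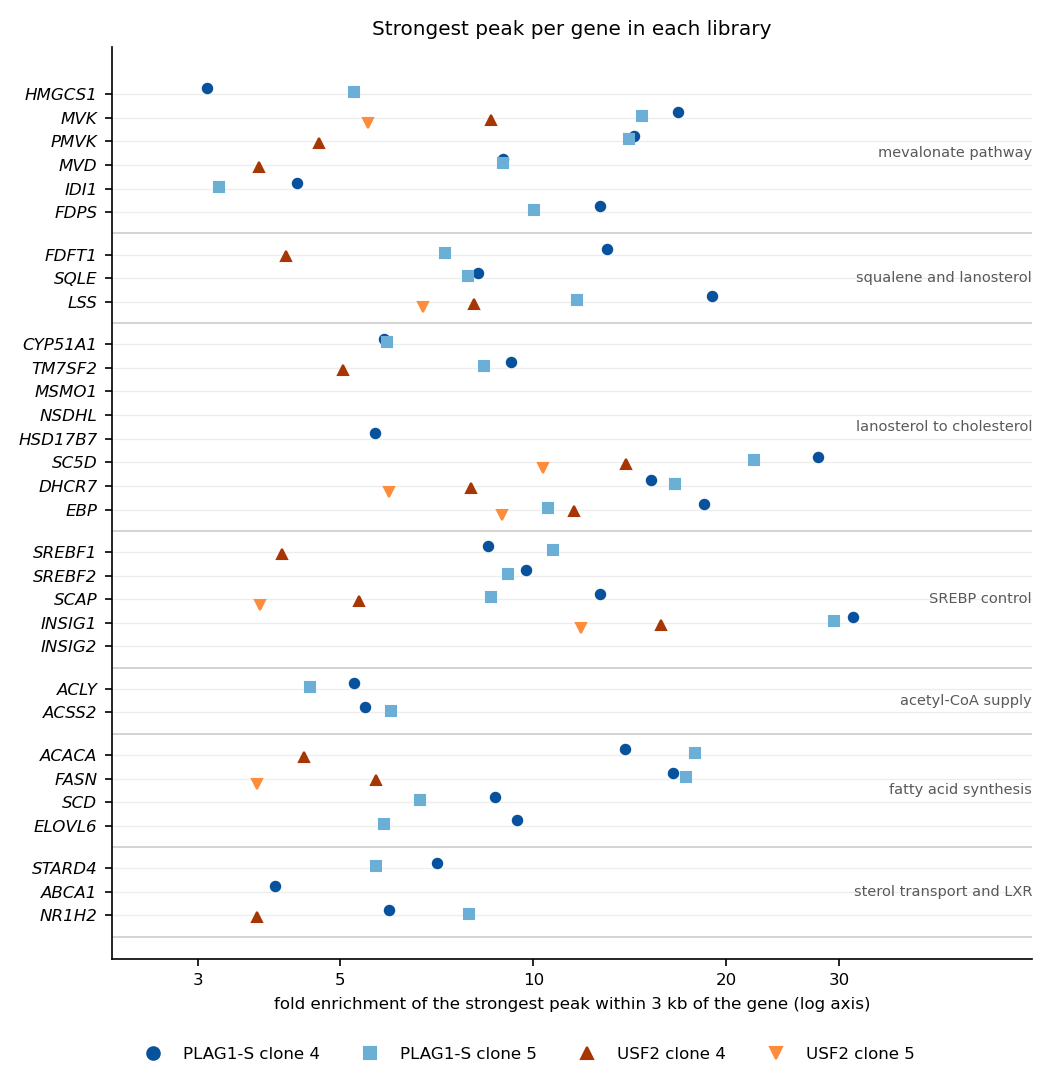
Fold enrichment (log axis) of the strongest peak within 3 kb of each of the 31 genes, in each of the 4 libraries, with genes grouped by their step. A missing symbol means no peak in that list, as for MSMO1, NSDHL and INSIG2 in all 4 lists. INSIG1 and SC5D lay furthest to the right for both factors.

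Over the whole list, 10 genes had a reproducible PLAG1-S peak and no USF2 peak in either clone, and 7 had one together with a USF2 peak in clone 4 only. No peak in any list was found at 3 genes, and 3 had peaks but none that was reproducible. These classes were not counted over all protein-coding genes, so that they only describe the 31 genes. The clone 4 USF2 list had 29 peaks at these genes and the clone 5 list 11, in lists of 9338 and 4369 peaks. Of the 29, 9 (31%) were found in clone 5, against 25.8% of the whole list. The 20 others had folds between 2.67 and 5.04, and 16 of them lay within 100 bp of a clone 4 PLAG1-S peak. How many USF2 peaks found in clone 4 only did so over the whole list was not counted. Of all clone 4 USF2 peaks, found in clone 5 or not, 60.4% did, against 86.2% of the 29. The clone 5 peaks at these genes were found in clone 4 in 81.8% of cases, against 56.4% of the list. The PLAG1-S lists of 37574 and 29889 peaks had 63 and 68 peaks at these genes, of which 76.2% and 77.9% were found in the other clone, against 57.1% and 72.8%.

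The 9 reproducible USF2 peaks had a larger fold in clone 4 than in clone 5 at every site, with a median ratio of 1.34. Over all 2358 reproducible USF2 peaks, 79.0% were larger in clone 4 and the median ratio was 1.22. For PLAG1-S, 32 of the 48 reproducible peaks at these genes were larger in clone 4 (66.7%), as were 66.5% of all reproducible PLAG1-S peaks. The clones differed at these genes in the same direction as over the whole lists. Each clone had 1 library per factor, so that clone and library cannot be told apart.

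All 9 reproducible USF2 peaks at these genes had a reproducible PLAG1-S peak within 100 bp, or 100% (95% Wilson interval 70.1% to 100%, counting error only), against 88.0% (86.6% to 89.2%) of all reproducible USF2 peaks. Counted from PLAG1-S, 9 of 48 peaks (18.8%) were co-bound, against 9.74% of all. The co-bound PLAG1-S peaks of the list had clone 4 folds between 10.7 and 31.5 with a median of 16.8, and the median of all co-bound peaks was 19.0. The 39 others had a median of 6.85 and reached 14.4, at PMVK. The 3 kb limit left out co-bound sites at 3 genes that lay within 10 kb. The site near SREBF1 began 3014 bp outside the gene in clone 4, with PLAG1-S folds of 13.0 and 10.7. Its USF2 folds were 8.37 and 5.85, and its clone 5 PLAG1-S peak, 2924 bp outside, fell inside the limit. That of FDPS lay 3358 bp outside, 71 bp from a start of RUSC1, with PLAG1-S folds of 22.9 and 23 and USF2 folds of 11.2 and 13.1. That of SCD lay 8442 bp outside, with PLAG1-S folds of 16.9 and 13.6 and USF2 folds of 9.31 and 4.58. Without any flank, all 8 genes with reproducible USF2 were still called, where 7.78% of all genes were.

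Of the 45 reproducible PLAG1-S peaks at genes with a known start, 20 had their summit within 500 bp of a start. The share of all reproducible PLAG1-S peaks within this limit was not computed, so that the count only describes these genes.

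The same rules were applied to 56 other genes of these and neighbouring pathways, among them isoprenoid and triglyceride synthesis. PLAG1-S was found at 42 of them (75.0%), USF2 at 5 (8.93%) and co-binding at 5 (8.93%). The shares of all protein-coding genes were 52.0%, 10.3% and 9.98%, so that USF2 and co-binding were no more frequent here than over all genes. At the start, of 46 genes with a start, 23 (50.0%) had PLAG1-S, 2 (4.35%) USF2 and 3 (6.52%) a co-bound peak. The shares of all genes with a start were 33.5%, 5.97% and 6.84%. DHDDS, a subunit of the enzyme that makes dolichol, had the strongest co-bound site, 183 bp before its start, with PLAG1-S folds of 36.6 and 30.2 and USF2 folds of 20.8 and 17.9. These were larger than the folds of INSIG1 in all 4 libraries.

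LPIN2 and LPIN1, phosphatidate phosphatases of triglyceride synthesis, had USF2 folds of 11.0 and 7.94 for LPIN2 and 5.20 and 4.16 for LPIN1. The site of LPIN2 lay 508 bp after its start, and that of LPIN1 lay 32700 bp after its start. PDSS2, which makes the side chain of ubiquinone, had USF2 folds of 8.29 and 8.03 at a site 184086 bp after its start. SLC25A1, the mitochondrial citrate carrier, had USF2 folds of 3.68 and 3.08 at 173 bp after its start. No reproducible USF2 peak was found at the 8 genes of SREBP processing and degradation, 7 other sterol enzymes and 13 elongation and desaturation genes. Reproducible PLAG1-S peaks were found at 7, 4 and 8 of them. Over all protein-coding genes 10.3% had USF2 and 52.0% PLAG1-S, so that counts in groups this small only describe their own genes.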

How the data were processed

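ChIP-seq peaks of PLAG1-S and USF2 from clones #4 and #5 were analysed, with 42.5 M reads of 50 bp per immunoprecipitation and 55 M per input, per the labels. The submitters' processing notes name cutadapt, HISAT2 2.0.4 and MACS2 among the tools and hg38 as the build. The authors called peaks in each library against the merged inputs, so that the 4 lists share their control. The fold deposited by the authors is a ratio of the fragments at the summit to the local background, after adding 1 to each. Poisson tests of the summit gave the −log10 p and −log10 q that the authors deposited. The authors' score, 10 times that −log10 q, entered no result. The PLAG1-S lists end at q-values of 0.00990 and 0.00856 and the USF2 lists at 0.0494 and 0.0477.

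Fragments and background were recovered from the fold and −log10 p, within 0.001 of the deposited −log10 p, at all peaks of the 31 genes. Backgrounds there ranged from 2.60 to 9.18 fragments, and fragments from 12 to 224, which limits the precision of weak peaks. The recovery and the overlap rules were tested on simulated data. Genes were protein-coding RefSeq genes (GRCh38.p14) on chromosomes 1 to 22, X and Y. Starts and sequences came from the RefSeq promoter table, which matched 28 of the 31 genes, all but FDFT1, SQLE and FASN. All peaks overlapping a gene widened by 3 kb were counted, also where another gene was nearer. Python 3.11.15, pandas 2.3.3 and scipy 1.17.1 were used.

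Libraries of the same number came from the same clonal cell line, per the labels, so that the clone pairs PLAG1-S with USF2. The lists were compared as counts, since an exact permutation test of 2 libraries against 2 cannot give a two-sided p below 0.333. The 31 genes, the pathway lists and the rules were chosen with earlier results of these data known. Values in all 4 libraries were given for every gene with a reproducible USF2 peak and for the 5 others with the largest clone 4 PLAG1-S fold. Alternatives changed how the clones are combined, the q-value threshold, the gene window, the distance between factors and the E-box letters. Those for PLAG1-S or USF2 alone at the start were added after the data were seen.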

Additional observations from a re-analysis of the deposited data

How the results depend on the processing

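Of 67 alternative settings of the counts, 60 stayed within 1.5 times the reported count or within the interval of the share. Of the 7 that moved, 6 counted USF2 peaks without asking for both clones. Some settings could not move. The count of 25 genes with PLAG1-S could not rise beyond the limit in a list of 31. A −log10 q of at least 2 could not change the PLAG1-S counts, since those lists end at q-values of 0.00990 and 0.00856. The tally is therefore not a measure of stability. With a peak of either clone, 15 genes had USF2 (27.1% of all protein-coding genes), 15 were co-bound (22.1%) and 10 were co-bound at the start (13.6%). With 1 clone left out, genes with USF2 numbered 8 (clone 5 alone) to 15 (clone 4 alone), where 13.6% and 25.3% of all genes were called. In the same order, co-bound genes numbered 9 to 15 (11.3% and 20.5% of all), those at the start 5 to 10 (7.14% and 12.6%), genes with PLAG1-S 26 to 28 (58.3% and 64.0%), at the start 15 to 19 (35.6% and 40%), and genes with USF2 at the start 5 to 6 (5.93% and 10.2%). The share of co-bound USF2 peaks was 81.8% to 86.2%, against 63.3% and 60.4% of all USF2 peaks. With CANNTG in place of CACGTG, 18 genes held the motif, against 70.5% of all. Under the replicate block, which asks for both factors within each clone, 8 genes were co-bound, 5 at the start, and the share was 100%, so that the pairing changed no call.

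At a −log10 q of at least 10 in every list, 6 genes kept USF2 (5.85% of all), without SCAP and FASN. With 50% reciprocal overlap between clones, 6 genes kept USF2 and co-binding (9.28% and 8.65% of all), without SC5D and FASN. With 100 bp between summits in place of edges, 7 genes were co-bound (9.23% of all), without FASN. With 10 kb flanks, FDPS, SCD and SREBF1 were added, for 11 genes with USF2 and 11 co-bound (12.9% and 12.5% of all). Weak sites held few fragments, so that a USF2 peak missing from the clone 5 list was not shown to be absent.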
